A study of Mus musculus with 42 samples.

Results

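Skeletal muscle of mice with diabetic macroangiopathy (group C) was compared with skeletal muscle of healthy mice (group G), gene by gene. The 6 arrays used, 3 in each group, were taken by their sample labels alone from the 42 single-colour Agilent arrays of the series, which hold aorta and skeletal muscle from 7 groups of male mice that were 18 to 20 weeks old at the start. Macroangiopathy mice were KK/Ay mice, an obese strain with spontaneous type 2 diabetes that carries the Ay allele at the nonagouti locus, and for 8 weeks they received a high-fat diet and the nitric oxide synthase inhibitor L-NAME (0.2 mg/ml). Healthy mice were C57BL/6 mice without the diet or L-NAME, and both groups received saline by gavage for 8 weeks. Strain, the Ay allele, diabetes, diet and L-NAME all differ between the groups, so their parts in any difference cannot be told apart. Muscle of the diabetic mice (group A), KK/Ay mice that received saline but neither the high-fat diet nor L-NAME, stands nearest to this comparison. Its levels are given for some genes, and it is compared over all genes further below. Muscle was sampled from 3 mice of each group, the number of its muscle arrays, but the labels tie no array to a mouse, and P values measure only the spread between samples. Which muscle was taken is not given in the sources used here.

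Skeletal muscle takes up most of the glucose that insulin clears from the blood, and in type 2 diabetes this uptake is impaired. Its fibres burn fatty acids and glucose in mitochondria through the citric acid cycle and the respiratory chain, and a separate set of ubiquitin ligases marks their contractile proteins for breakdown during fasting, glucocorticoid excess or disuse. In the Ay allele a deletion removes the coding part of Raly together with Eif2s2 and places the nonagouti gene (a) under the promoter of Raly, so that agouti protein, which is normally confined to the skin, is made in many tissues.

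Some of the largest differences below were read from 60-base probes, and these are shown, 5′ to 3′, because the signal of each gene was read from them. The probe of a, which measures the Ay transcript, was placed by the array design at mm9 chr2:154871493-154873446 on the plus strand, and the genomic span is longer than the probe because the probe crosses a splice junction. The same holds for the probes of Gdpd3 (mm9 chr7:133914520-133914693, plus strand), Mup1 (mm9 chr4:60511965-60512188, minus strand) and Retn (mm9 chr8:3656145-3656966 and chr8:3656107-3656928, plus strand), whereas the probe of Cyp2e1 (mm9 chr7:147959585-147959644, plus strand) is unbroken in the genome. The level of Retn is the mean of its 2 probes, and that of each other gene shown rests on 1 probe. All letters are in lower case because no part is set apart.
a: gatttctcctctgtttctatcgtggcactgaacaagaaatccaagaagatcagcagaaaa
Gdpd3: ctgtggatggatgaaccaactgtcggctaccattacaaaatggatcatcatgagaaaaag
Mup1: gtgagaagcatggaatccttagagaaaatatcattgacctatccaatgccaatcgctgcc
Retn, probe 1: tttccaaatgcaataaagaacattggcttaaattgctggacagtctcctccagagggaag
Retn, probe 2: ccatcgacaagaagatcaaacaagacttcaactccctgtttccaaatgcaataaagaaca
Cyp2e1: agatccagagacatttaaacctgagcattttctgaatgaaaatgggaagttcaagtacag

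The labels were checked on the locus of the Ay allele. The normalized log2 intensity of a, called its log2 level from here on, was 9.19, 8.94 and 9.69 on macroangiopathy arrays 1, 2 and 3 and 5.46, 5.27 and 5.32 on healthy arrays 1, 2 and 3. Its probe was above background on all macroangiopathy arrays and on no healthy array, and a was at least 13.6-fold higher in macroangiopathy muscle (adjusted p = 0.00104 in limma). Raly stood at 10.97, 10.64 and 11.18 in macroangiopathy and 12.32, 12.45 and 11.67 in healthy muscle, a log2 difference of -1.22 that missed the threshold (adjusted p = 0.0509). Eif2s2 differed by -0.55 (adjusted p = 0.129). On neither gene did the arrays of the groups overlap, but 12.9% of all genes tested also lay lower on all macroangiopathy arrays. For 14 genes of skeletal muscle such as Acta1, Ckm and Myh4, the summed log2 level was 20.31 to 20.32 in macroangiopathy and 20.09 to 20.32 in healthy muscle. Of the 14, 0 were called different, where 3.35% of all genes were. No aorta array was set beside these sums, so they do not check the tissue label.

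The arrays were not equally alike. Correlation over the genes tested was 0.981 to 0.992 among macroangiopathy arrays and 0.936 to 0.966 among healthy arrays, and the median SD of a gene was 0.109 log2 units in macroangiopathy, 0.276 in healthy and 0.114 in diabetic muscle. Healthy array 2 correlated more closely with macroangiopathy array 3 (0.972) than with healthy array 1 (0.966). Summed markers of neutrophils and mast cells stood at 16.82 on healthy array 3 against 11.29 to 13.31 on the other 5 arrays, and S100a8 and S100a9, calcium-binding proteins of neutrophils, were at 14.21 and 16.53 there. The 6 arrays lay on 4 slides, with healthy arrays 1 and 2 on slide 10, healthy array 3 on slide 5, macroangiopathy arrays 1 and 2 on slide 2 and macroangiopathy array 3 on slide 3. No slide held both groups, so slide and group cannot be told apart in this comparison. Nor can the day of scanning, since all macroangiopathy arrays were scanned on day 1, healthy array 3 on day 2 and healthy arrays 1 and 2 on day 3, and a random block for slide does not remove such a difference. The files of healthy arrays 1 and 2 also hold 63 columns where the other 4 hold 27. The shares of named probes above background overlapped, at 60.94% to 66.17% in macroangiopathy and 60.67% to 70% in healthy muscle, and with 3 arrays in a group the number of arrays limits the precision.

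Of 13836 genes tested, 463 differed between the groups in limma, with a P value below 0.05 after Benjamini-Hochberg adjustment (3.35%), and such genes are called here. Of these, 273 were higher in macroangiopathy muscle (1.97% of the genes tested) and 190 were lower (1.37%). The 3 arrays of the groups did not overlap on any of the 463, whereas without a test 2420 genes (17.5%) lay higher on all macroangiopathy arrays and 1779 (12.9%) lower. At an unadjusted P value below 0.05, 1776 genes passed higher (12.8%) and 1243 lower (8.98%). The median difference of the called genes was 1.08 log2 units in size, and 271 of them differed by more than 2-fold, 146 upwards and 125 downwards. No probe of the gene was well above background on any healthy array for 16 of the called increases, and on any macroangiopathy array for 20 of the called decreases.

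The number of calls depended on single arrays. Without healthy array 3 it was 1589 (11.5% of the genes tested) and without healthy array 2 it was 1007 (7.28%). It was 123 (0.889%) without healthy array 1 and 18, 18 and 53 without macroangiopathy arrays 1, 2 and 3. With slide as a random block 208 genes were called, and all of them were among the 463.

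**Figure D1:**
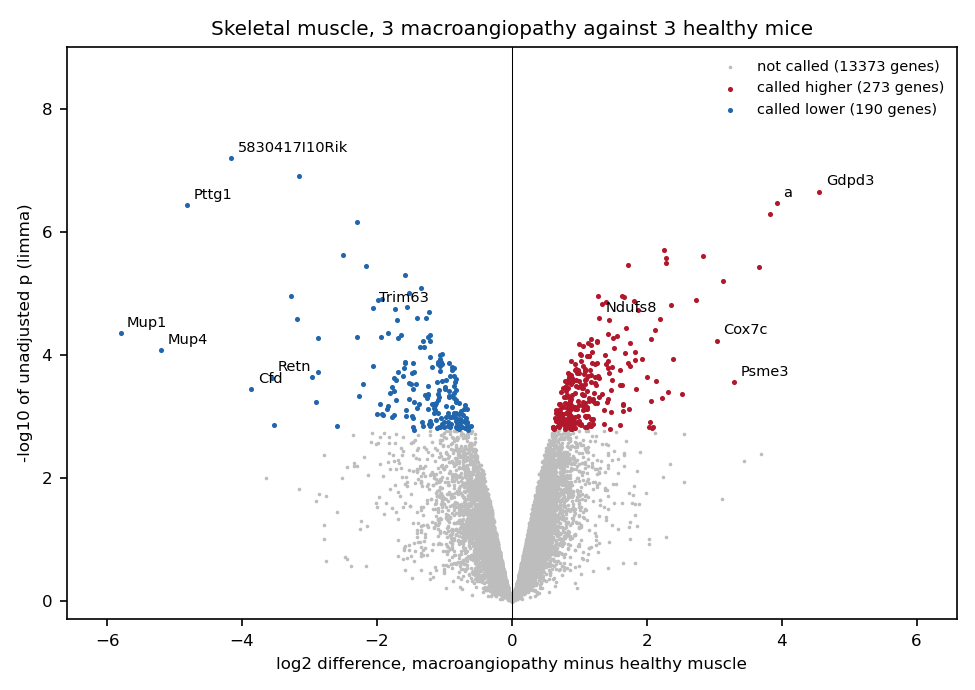
Each point is 1 of 13836 genes in skeletal muscle, with the log2 difference between the 3 macroangiopathy and the 3 healthy arrays on the x axis and -log10 of the unadjusted P value of limma on the y axis. The 273 genes called higher are red and the 190 called lower blue. The largest differences are those of Gdpd3 and a to the right and of Mup1, Mup4 and Pttg1 to the left.

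The 10 largest increases were led by Gdpd3, a lysophospholipase D that releases lysophosphatidic acid from lysophospholipids. Its log2 levels were 11.19, 11.38 and 11.39 in macroangiopathy and 6.66, 6.39 and 7.23 in healthy muscle, a difference of 4.56 ± 0.23 (SE, n = 3 in each group; adjusted p = 0.00103), or 23.6-fold. The diabetic arrays were at 11.35, 11.14 and 11.35, with the macroangiopathy arrays. Beside a, the other increases of this group were 1700020D05Rik (3.83), LOC100504785 (3.66), Psme3, the subunit of the nuclear proteasome activator (3.30), Gal3st1, the sulfotransferase that makes sulfatide (3.13), Cox7c, a subunit of cytochrome c oxidase (3.04), Abhd1 (2.83), Opn1mw, a cone opsin (2.73), and Slc37a4, the glucose 6-phosphate transporter of the endoplasmic reticulum (2.53). Their adjusted P values ranged from 0.00104 for a to 0.0283 for Slc37a4.

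The 10 largest decreases included major urinary proteins, which are lipocalins that carry pheromones and are known mostly from liver. Mup1 stood at 5.64, 5.99 and 5.56 in macroangiopathy muscle, below background on all 3 arrays, and at 13.08, 10.32 and 11.19 in healthy muscle, so it was at least 54.8-fold lower (adjusted p = 0.0134). Mup4 differed by -5.20 (adjusted p = 0.0163) and Mup5 was at least 6.81-fold lower (adjusted p = 0.0328). Mup8 differed by -1.82 and was not called (adjusted p = 0.0731). The probes of this family may read transcripts of near-identical copies. On Mup1, Mup4 and Mup5 healthy array 1 was the highest and healthy array 2 the lowest of the healthy arrays.

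Pttg1, securin, which inhibits separase until anaphase, had log2 levels of 8.64, 8.82 and 8.50 in macroangiopathy and 13.68, 13.81 and 12.89 in healthy muscle. It was lower by 4.81 log2 units (SE 0.26, adjusted p = 0.00104), the third largest decrease. 5830417I10Rik was at least 15.3-fold lower and LOC100505027 at least 7.84-fold lower, both at the smallest adjusted P value of the comparison, 0.000862. Cyp2e1, a cytochrome P450 that oxidizes ethanol and fatty acids, stood at 5.97, 7.29 and 6.38 against 9.85, 9.59 and 9.76, a difference of -3.19 (adjusted p = 0.00905). The other decreases of this group were Cfd (-3.86) and Retn (-3.56), which are described with the adipocyte genes, Ctsh, a lysosomal cathepsin (-3.52), and Slc47a1, an exporter of organic cations (-3.27).

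**Figure D2:**
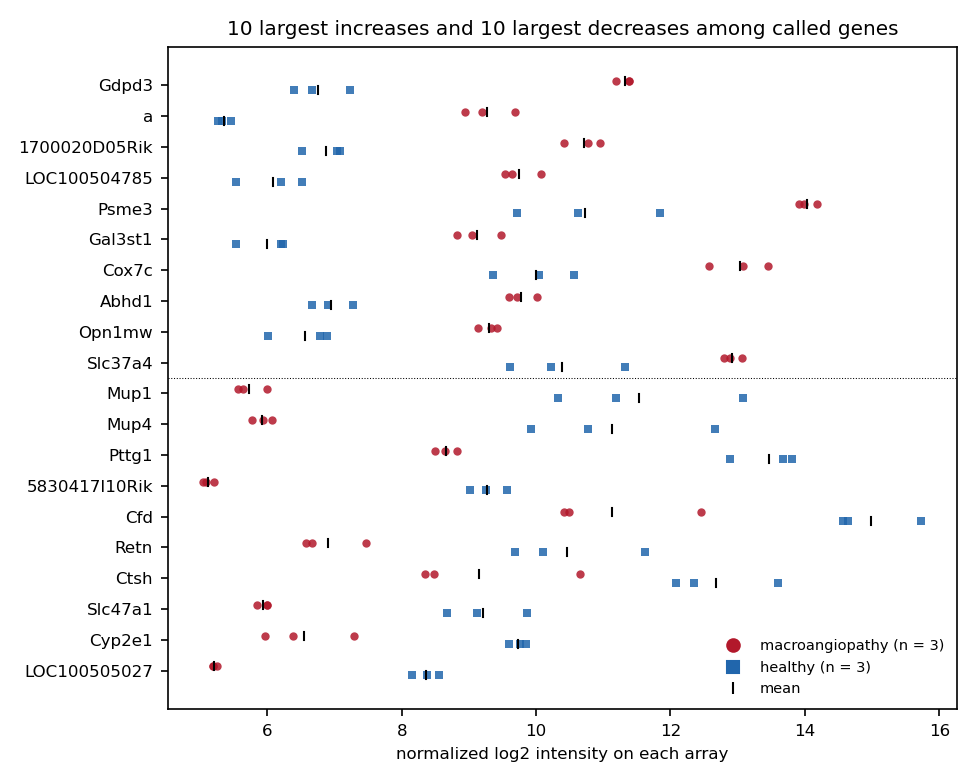
Normalized log2 intensity (x axis) of the 10 genes with the largest increase and the 10 with the largest decrease among called genes, with a red circle for each of 3 macroangiopathy arrays, a blue square for each of 3 healthy arrays and a black tick for the mean. Only called genes on which the groups do not overlap could be chosen, so the groups are apart on every gene shown. The healthy arrays are spread widest on Mup1, Mup4 and Psme3.

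Both muscle-specific ubiquitin ligases of the proteolysis programme fell in macroangiopathy muscle. Trim63 (MuRF1), the ubiquitin ligase that marks myosin for the proteasome, had log2 levels of 12.93, 13.16 and 12.99 in macroangiopathy and 15.14, 14.71 and 15.40 in healthy muscle. It fell by 2.06 log2 units (SE 0.20, adjusted p = 0.00761), or 4.16-fold. Fbxo32 (atrogin-1), the other muscle-specific ligase, stood at 11.75, 11.60 and 11.91 against 12.81, 12.73 and 12.95, a difference of -1.07 (adjusted p = 0.0186). Klf15, a glucocorticoid-induced transcription factor that switches muscle to the use of amino acids, differed by -1.06 (adjusted p = 0.0208). On all 3 genes the groups were apart, as on every called gene. The diabetic arrays were lower still, at 12.65, 12.51 and 12.16 on Trim63 and 11.15, 11.38 and 11.04 on Fbxo32. On Klf15 they stood at 8.63, 8.56 and 8.72. None of the 3 genes was called between macroangiopathy and diabetic muscle in limma.

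Of 20 genes listed for atrophy and proteolysis, 3 were called lower, where 1.37% of all genes were, and 0 higher. At the unadjusted threshold 10 passed lower, where 8.98% of all genes did, and 2 higher. The median difference was -0.54 against 0.04 over all genes tested. Among members that were not called, Cdkn1a, a cell cycle inhibitor, differed by -2.36 (adjusted p = 0.0536) and the metallothionein Mt2 by -2.86 (adjusted p = 0.141). Mt2 stood at 17.26 on healthy array 3 against 14.11 and 13.37 on the other healthy arrays. Without healthy array 3 the list had 6 genes called lower and 1 called higher, with a median of -0.37, without healthy array 2 it had 5 called lower and without healthy array 1 it had 1. Over all genes, 11.5%, 7.28% and 0.889% were called in these fits, in the same order. Slide 10 also held 2 muscle arrays of KK/Ay mice with the diet and L-NAME that were treated with rosiglitazone, and these differed from healthy arrays 1 and 2 on the same slide by a median of -0.23. Foxo1, the transcription factor upstream of both ligases, differed by -1.11 (adjusted p = 0.0708). The proteasome itself showed no such shift: 0 of 34 subunits were called in limma, with 1 higher and 2 lower at the unadjusted threshold, and the median was 0.07.

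Of the genes that glucocorticoids induce, Klf15 and Glul fell. Of 19 tested, 2 were called lower, where 1.37% of all genes were, and 0 higher. Without adjustment 12 passed lower, where 8.98% of all genes did, and 0 higher, and the median was -1.06. The number called lower was 0 in limma without healthy array 1 (12 unadjusted), 7 without healthy array 2 and 9 without healthy array 3, where the median was -0.75. Over all genes, 0.889%, 7.28% and 11.5% were called in these fits, in the same order. Within slide 10 the rosiglitazone arrays differed from the healthy arrays by a median of -0.65. Glul, glutamine synthetase, stood at 10, 10.25 and 10.54 in macroangiopathy and 11.76, 11.43 and 11.94 in healthy muscle (-1.45, adjusted p = 0.0209), and differed by -0.62 within slide 10. Fkbp5, a co-chaperone of the glucocorticoid receptor, differed by -1.46 (adjusted p = 0.0969), and Tsc22d3 (GILZ) by -0.34. Against the diabetic arrays the median of the macroangiopathy arrays was 0.22 on 18 of these genes. The amino acid transporter Slc43a1 (LAT3) also fell, by 1.94 (adjusted p = 0.0135), from 11.25, 10.79 and 10.52 to 8.98, 8.68 and 9.08.

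Because Trim63 is known to be driven by FoxO factors and by the glucocorticoid receptor, its promoter was read from RefSeq (GRCm38.p6, chr4:134314870-134315169, plus strand, 300 bases that hold the transcript start). Capitals mark TGTTTAC, the core of FoxO sites, and TGTTCT, the core of glucocorticoid receptor sites, which are adjacent and were searched on both strands.
Trim63: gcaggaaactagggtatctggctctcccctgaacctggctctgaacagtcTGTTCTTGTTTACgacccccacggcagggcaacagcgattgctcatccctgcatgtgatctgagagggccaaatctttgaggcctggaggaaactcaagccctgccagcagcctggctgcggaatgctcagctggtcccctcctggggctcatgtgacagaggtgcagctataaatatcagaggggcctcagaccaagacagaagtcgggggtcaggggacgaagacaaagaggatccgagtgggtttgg
The match of TGTTCT begins at base -200 and that of TGTTTAC at base -194 from the transcript start. Of 32851 such windows, 1199 (3.65%) hold TGTTTAC and 6233 hold TGTTCT. The windows of Klf15 and Glul hold none of these motifs.

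Calls among genes of the mitochondrial respiratory chain were all increases. Of 78 subunits tested, 5 were called higher, where 1.97% of all genes were, and 0 lower, 37 passed higher and 1 lower without adjustment, and the median difference was 0.47 against 0.04 over all genes. The medians were 0.47 over 36 subunits of complex I, 0.60 over 4 of complex II, 0.43 over 9 of complex III, 0.29 over 13 of complex IV and 0.49 over 15 of complex V, the ATP synthase. In complex I, Ndufs8 stood at 12.08, 12.08 and 11.84 in macroangiopathy and 10.64, 10.65 and 10.79 in healthy muscle (1.30 ± 0.13 SE, adjusted p = 0.00905), and Ndufb5 differed by 1.42 (adjusted p = 0.0186). Sdhd, the membrane anchor of complex II, differed by 0.95 (adjusted p = 0.0247) and Atp5g3, a ring subunit of the ATP synthase, by 1.05 (adjusted p = 0.0254). Cox7c of complex IV stood at 13.08, 13.45 and 12.57 against 9.36, 10.05 and 10.57.

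Levels of these genes were compared with those on other slides. Slide 4 held 4 muscle arrays of KK/Ay mice that also had the diet and L-NAME and were treated with huoxue, a herbal preparation (3 arrays), or with rosiglitazone, a PPARgamma agonist (1 array), and slide 10 held 2 further rosiglitazone arrays beside healthy arrays 1 and 2. Ndufs8 stood at 9.80, 10.53, 10.93 and 10.75 on the slide 4 arrays and at 10.72 and 10.68 on the slide 10 rosiglitazone arrays, all below the macroangiopathy arrays and within 1 log2 unit of the healthy arrays. Cox7c had means of 9.76 on slide 4 and 11.29 on slide 10, against 9.99 in healthy and 13.03 in macroangiopathy muscle. On slide 10 alone, the rosiglitazone arrays differed from the healthy arrays by 0.40 on Ndufb5, 0.31 on Sdhd and 0.30 on Atp5g3, and over the 78 subunits by a median of 0.26. Other subunits were above the healthy mean on the slide 4 arrays, such as Sdhc by 1.04, Cox7a1 by 1.02 and Cyc1 by 0.86. The treatments differ from the macroangiopathy group as well, so drug and slide cannot be told apart on these arrays. Against healthy array 3 alone, on slide 5, the median of the macroangiopathy arrays over the subunits was 0.70. Without that array the list kept a median of 0.26, with 16 subunits called higher and 1 lower, where 11.5% of all genes were called.

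The same comparison was made for every called gene, against the means of the healthy and macroangiopathy arrays on which the genes were called. Of the 273 increases, 69 (25.3%) had a mean nearer to the healthy than to the macroangiopathy mean on both the slide 4 and the slide 10 treated arrays, and 171 (62.6%) were nearer to the macroangiopathy mean on both. Of the 190 decreases, 8 (4.21%) were nearer to the healthy mean on both and 165 (86.8%) nearer to the macroangiopathy mean. Gdpd3 was among the latter kind of increase, with means of 11.39 and 11.31 on the treated arrays, and Trim63 among the latter kind of decrease, with 12.93 and 12.92. Psme3, Slc37a4, Phkg1 and Ddah2 were nearer to the healthy mean on slide 4, at 10.14, 10.58, 8.26 and 9.53.

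**Figure D3:**
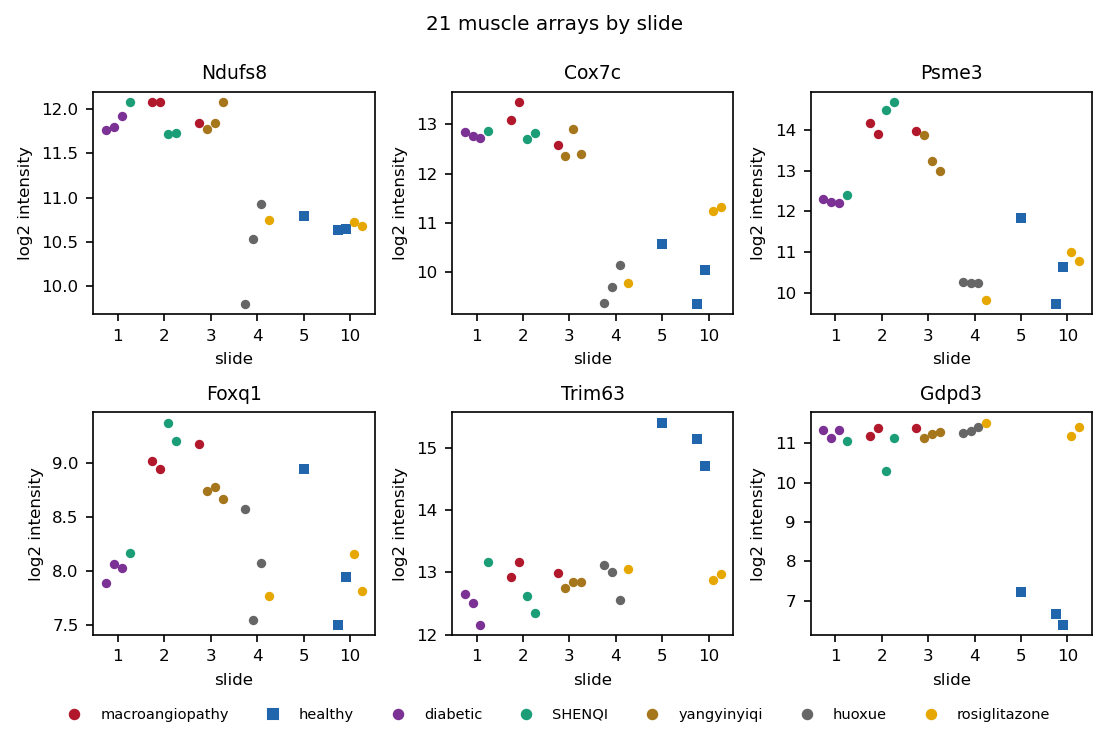
Log2 intensity (y axis) of 6 genes on the 21 muscle arrays, ordered by slide (x axis), with 1 point per array, coloured by group, and squares for healthy mice. Every array of slides 1 to 3 lies above every array of slides 4, 5 and 10 on Ndufs8, Cox7c and Psme3, and on slide 10 the rosiglitazone arrays lie above the healthy arrays on Cox7c, whereas Trim63 and Gdpd3 separate healthy arrays from all KK/Ay arrays on every slide.

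The citric acid cycle, glycolysis and fatty acid oxidation lists held 1 called gene each, a share close to the 3.35% over all genes. In the citric acid cycle list 1 of 25 genes was called, Pdp1, the phosphatase that activates pyruvate dehydrogenase, at 10.78, 10.83 and 10.76 in macroangiopathy and 9.28, 9.67 and 8.47 in healthy muscle (1.65, adjusted p = 0.0372). The median of that list was 0.48, with 12 genes higher and 1 lower at the unadjusted threshold, and its median against healthy arrays within slide 10, again in rosiglitazone mice, was 0.28. Pdp1 itself differed by 1.68 within slide 10. Phkg1, the catalytic subunit of muscle phosphorylase kinase, was the 1 of 29 glycolysis and glycogen genes called (1.83, adjusted p = 0.0186), with a difference of 0.74 within slide 10.

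Among 31 genes of fatty acid oxidation, 1 was called, and it was lower: Ppara, the nuclear receptor that drives the pathway, at 8.85, 8.88 and 9.24 against 9.84, 10.32 and 10.08 (-1.09, adjusted p = 0.0318). The enzymes of the pathway had a median of 0.29 with the regulators included, 9 passed higher and 3 lower without adjustment, and Acadm and Hadh, which carry out steps of beta oxidation, differed by 0.99 and 1.11 without being called. Of 24 genes of fatty acid uptake and storage, 2 were called and both were lower, where 1.37% of all genes were called lower. These were Plin4, a lipid droplet coat protein (-1.10, adjusted p = 0.0186), and Lpin1, a phosphatidate phosphatase (-1.45, adjusted p = 0.0328). Cd36, the main fatty acid transporter of muscle, differed by 0.00. In fatty acid synthesis 0 of 14 genes were called in limma, 4 passed lower and 0 higher without adjustment, and Fasn differed by -2.51 (adjusted p = 0.107), with healthy array 1 at 13.18 and the other healthy arrays at 10.63 and 10.38.

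No gene of insulin signalling and glucose transport was called in limma among 35 tested, and 3 passed higher and 6 lower without adjustment. The insulin receptor Insr differed by -0.03 and its substrate Irs1 by 0.18. Slc2a4 (GLUT4), the insulin-responsive glucose transporter, stood at 14.97, 14.98 and 15.05 in macroangiopathy and 14.10, 14.60 and 14.32 in healthy muscle, a difference of 0.66 ± 0.16 (SE) that was not called (adjusted p = 0.0753).

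**Figure D4:**
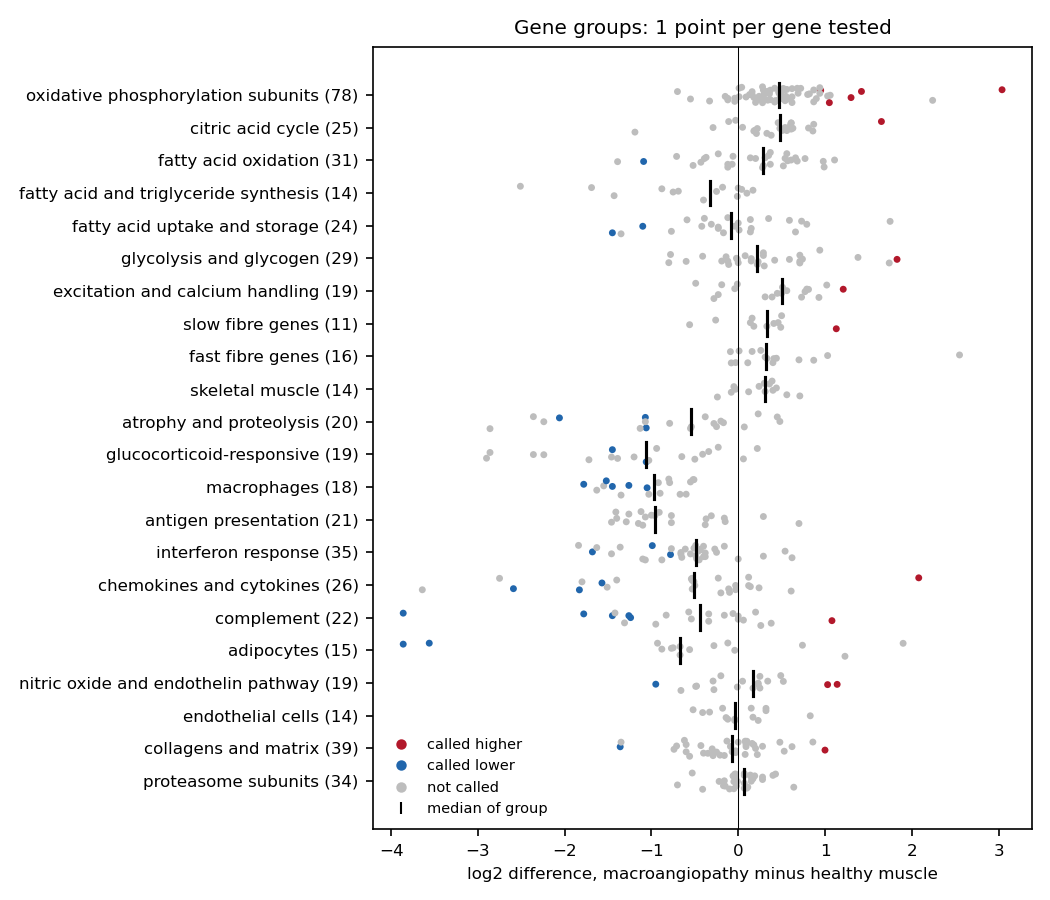
Log2 difference between macroangiopathy and healthy muscle (x axis) for each gene tested in 22 gene groups (y axis, number of genes in parentheses), with called genes in red or blue, other genes grey and the median of each group as a black bar. Medians lie above 0 for the respiratory chain and the citric acid cycle and near -1 for macrophage, antigen presentation and glucocorticoid-responsive genes.

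The slow fibre, fast fibre, calcium handling, neuromuscular junction and myogenic lists held 1 call or none, and with slide as a random block Tnnc1, Trdn and Chrne were no longer called (adjusted p = 0.0782, 0.065 and 0.0582). Of 28 heat shock proteins 2 were called higher, and of 18 myokines and secreted growth factors also 2, where 1.97% of all genes were. Tnnc1, the troponin C of slow fibres, was the 1 of 11 slow fibre genes called (1.13, adjusted p = 0.0476), and healthy array 3 was the highest of its group at 12.69. Limma called 0 of 16 fast fibre genes, with 4 higher and 0 lower at the unadjusted threshold, and Casq1, the calcium store protein of fast fibres, differed by 2.55 (adjusted p = 0.0532). Trdn, triadin of the calcium release complex, was called at 1.21 (adjusted p = 0.0433), but its 4 probes differed by 0.24 to 3.74. Chrne, the adult subunit of the acetylcholine receptor at the motor end plate, was higher by 1.05 (adjusted p = 0.0286), and the small heat shock protein Hspb3 by 1.04 (adjusted p = 0.0254). Dkk3, a secreted relative of Wnt inhibitors, rose by 1.73 (adjusted p = 0.0186) from 7.73, 8.13 and 7.33 to 9.68, 9.26 and 9.42. Inhba, a subunit of activin, was higher by 0.85 (adjusted p = 0.0473), and no myogenic factor was called among 19 in limma, where 1 passed higher and 4 lower without adjustment.

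The calls among macrophage genes were all decreases. Of 18 tested, 5 were called lower, where 1.37% of all genes were, and 0 higher. Without adjustment 12 passed lower, where 8.98% of all genes did, and 0 higher, and the median was -0.98. With slide as a random block 2 were called, and within slide 10 the rosiglitazone arrays differed from the healthy arrays by a median of -0.56, by -0.53 on Emr1 and by -0.51 on C1qa. Emr1 (F4/80), the classical surface marker, stood at 6.85, 6.59 and 6.80 in macroangiopathy and 7.77, 7.70 and 7.92 in healthy muscle (-1.05, adjusted p = 0.0186). The complement subunits C1qa, C1qb and C1qc, which tissue macrophages make, differed by -1.26, -1.78 and -1.45, and Mpeg1, a pore-forming protein of macrophages, by -1.52. The summed level of the list was 13.49 to 13.79 in macroangiopathy and 13.97 to 15.57 in healthy muscle, with the highest value on healthy array 3, the array with neutrophil markers. Without that array 8 of the 18 were called lower and the median was -0.81, without healthy array 2 again 8, and without healthy array 1 limma called 0, while 11 passed lower and 0 higher unadjusted. Over all genes, 11.5%, 7.28% and 0.889% were called in these fits, in the same order. In bulk tissue, fewer cells of a type and less RNA per cell cannot be told apart.

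Calls among inflammatory genes were decreases but for Ccl19 and Cd59a. In the interferon response 3 of 35 genes were called lower and 0 higher, among them Gbp2, an interferon-induced GTPase, at 9.19, 9.33 and 9.10 against 11.32, 10.42 and 10.93 (-1.68, adjusted p = 0.0209) and the RNA sensor Ifih1 (-0.78, adjusted p = 0.0492). The list had 17 genes lower and 2 higher at the unadjusted threshold and a median of -0.49. Among all genes 1.37% were called lower and 8.98% passed lower without adjustment. Of 26 chemokines and cytokines, Ccl5 (-2.59), Ccl9 (-1.83) and Cxcl9 (-1.57) were called lower and Ccl19, which guides T cells and dendritic cells, was called higher (2.08, adjusted p = 0.0482). In complement, Cfp, the stabilizer of the alternative pathway convertase, fell by 1.24 (adjusted p = 0.0285) beside the C1q subunits and Cfd, whereas the membrane inhibitor Cd59a rose by 1.08 (adjusted p = 0.0201). For antigen presentation 0 of 21 genes were called in limma, 8 passed lower and 1 higher without adjustment, and the median was -0.96. Mmp9, a gelatinase of neutrophils, was at least 1.93-fold lower (adjusted p = 0.0452), and S100a8 and S100a9 overlapped between the groups. The part of the cell make-up of healthy array 3 in these differences was not tested beyond the counts without it. These left the interferon list with 8 genes called lower and 1 higher, where 11.5% of all genes were called.

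Of 15 adipocyte genes tested, 2 were called and both were lower, where 1.37% of all genes were called lower. Cfd (adipsin), a serine protease of the alternative complement pathway that adipocytes secrete, had log2 levels of 10.42, 12.46 and 10.49 in macroangiopathy and 15.73, 14.64 and 14.57 in healthy muscle (-3.86, adjusted p = 0.0258). Retn, resistin, stood at 6.58, 7.47 and 6.66 against 11.62, 10.10 and 9.68 (-3.56, adjusted p = 0.0223). Other adipocyte genes overlapped between the groups: Adipoq, adiponectin, was at 10.09, 12.16 and 10.60 against 13.09, 11.66 and 10.91, and Fabp4 differed by -0.04. Lep, leptin, pointed the other way at 6.77, 8.41 and 7.11 against 6.04, 5.17 and 5.36, a difference of 1.90 that was not called (adjusted p = 0.0728). The summed level of the list was 14.62 to 15.63 in macroangiopathy and 15.54 to 17.06 in healthy muscle, with the highest macroangiopathy value on array 2 and the highest healthy value on array 1. Ucp1, the uncoupling protein of brown fat, was above background on all macroangiopathy and no healthy array and at least 2.04-fold higher (adjusted p = 0.0328), at log2 levels of 6.96, 6.27 and 6.33. The diabetic arrays were at 6.88, 6.88 and 6.83, and Ucp1 was no longer called in 14 of 21 alternatives, where its highest adjusted P value was 0.286.

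L-NAME inhibits nitric oxide synthases, and the genes around nitric oxide were therefore listed. Nos3, the endothelial synthase, stood at 8.16, 8.46 and 8.39 in macroangiopathy and 8.56, 9 and 8.91 in healthy muscle, a difference of -0.49 that was not called (adjusted p = 0.155), and Nos1, the synthase of muscle fibres, differed by -0.01. Ddah1 and Ddah2, which degrade the endogenous inhibitor dimethylarginine, were called higher by 1.03 (adjusted p = 0.0469) and 1.14 (adjusted p = 0.0176). Within slide 10, however, the rosiglitazone arrays differed from the healthy arrays by -0.16 on Ddah2 and by 0.90 on Ddah1. Ece1, the endothelin-converting enzyme, was called lower by 0.95 on the mean of 2 probes that differed by -2.08 and 0.18, and its brightest probe gave 0.18 (adjusted p = 0.592). Of 14 endothelial markers limma called 0, and 0 passed without adjustment, with a median of -0.04, and of 10 smooth muscle markers Smtn, smoothelin, was called (1.13, adjusted p = 0.0407).

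In the extracellular matrix 2 of 39 genes were called, a share close to the 3.35% over all genes. Lox, the enzyme that crosslinks collagen, fell by 1.36 (adjusted p = 0.0149), from 8.75, 8.73 and 8.98 to 7.28, 7.39 and 7.71. Lama2, the laminin chain of the muscle basement membrane, was higher by 1 log2 unit (adjusted p = 0.0229), where the rosiglitazone arrays differed from the healthy arrays of slide 10 by 0.43. Among 30 antioxidant genes the mitochondrial superoxide dismutase Sod2 (0.84) and peroxiredoxin Prdx2 (0.64) were called higher and Gclc, which starts glutathione synthesis, lower (-0.67). Among 18 glutathione transferases Gstm2 (-1.46) and Gsto1 (-0.93) were called lower. The list medians were -0.08 and -0.27, and 3.35% of all genes were called. On the authors' value table, on the processed signal and without healthy array 1, limma called 0 of the 30. Within slide 10 the rosiglitazone arrays differed from the healthy arrays by 0.33 on Sod2, 0.59 on Prdx2 and -0.43 on Gclc. Nnt, the mitochondrial transhydrogenase that makes NADPH for glutathione reduction, stood at 11.15, 10.75 and 10.72 in macroangiopathy and 9.99, 9.76 and 9.74 in healthy muscle (1.04, adjusted p = 0.0283). Its 3 probes differed by 0.88 to 1.13, and where they lie in the transcript was not tested. In the cell cycle list Mcm6, a subunit of the replicative helicase (-2.27), and Pcna, the polymerase clamp (-0.93), were called lower beside Pttg1. Of the 28 genes in that list, 13 passed lower without adjustment, where 8.98% of all genes did, and 2 higher. The median was -0.37, and 1.37% of all genes were called lower. The circadian repressor Bhlhe41 was the 1 of 18 clock genes called (0.98, adjusted p = 0.0248), and Arntl (BMAL1) differed by -1.37 (adjusted p = 0.0802).

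When macroangiopathy muscle was compared directly with diabetic muscle, from KK/Ay mice without the diet and L-NAME, 2 of 13702 genes were called (0.0146%) and 987 passed without adjustment (7.2%). The 2 were Psme3, at 14.18, 13.92 and 13.98 against 12.30, 12.24 and 12.20 (1.78, adjusted p = 0.00249), and Foxq1, a forkhead transcription factor, at 9.02, 8.95 and 9.18 against 7.89, 8.06 and 8.03 (1.06, adjusted p = 0.0492). Both genes differed between slides within 1 group. In SHENQI muscle, from KK/Ay mice with the diet and L-NAME that received the herbal SHENQI compound, the 2 arrays on slide 2 exceeded the 1 array on slide 1 by 2.20 on Psme3 and by 1.13 on Foxq1. All diabetic arrays lay on slide 1 and no macroangiopathy array did, so slide and group cannot be told apart here either. The diabetic arrays all lay above the healthy arrays on 266 of the 273 called increases and overlapped them on 7. They all lay below them on 186 of the 190 called decreases and overlapped them on 4. The genes were called on these same healthy arrays, so part of this separation follows from the choice of genes. The share over all genes was not counted. No diabetic muscle array shared a slide with a healthy muscle array.

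Whether a change was particular to muscle was tested against aorta of the same groups with an interaction term. Of 15742 genes, 15 differed between the tissues (0.0953%), and with slide as a random block limma called 0, with 1328 below an unadjusted P value of 0.05. The largest differences towards muscle were those of Ropn1l, a protein of sperm and cilia, which differed by 1.68 in muscle and by -1.71 in aorta, and Katnal2, a relative of the microtubule-severing katanin, at 2.28 in muscle and -0.98 in aorta. Psph, which makes serine, stood at 0.90 and -1.27, and Gata1, the transcription factor of erythroid cells, at 1.75 and -0.09. Gata1 also differed between slides within SHENQI muscle, by 1.14, and had a mean of 5.82 on the treated slide 4 arrays against 7.53 in macroangiopathy and 5.77 in healthy muscle. Of the 4 groups in this fit, Tmem132d was above background in macroangiopathy muscle alone, at 7.09, 6.95 and 7.31, and was at least 3.09-fold higher than in healthy muscle. Diabetic muscle, which was not in this fit, stood at 7.21, 6.58 and 7.16 on Tmem132d. Macroangiopathy minus diabetic muscle was -0.19 on Katnal2, 0.21 on Ropn1l, 0.1 on Psph and 1.02 on Gata1, none of them called.

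In the other direction Cdh15, M-cadherin of muscle satellite cells, differed by -2.09 in muscle, at 8.63, 9.02 and 9.14 against 10.18, 10.79 and 12.07, and by 1.98 in aorta. Fibin changed by -0.27 in muscle and 3.19 in aorta, Alas2, the first enzyme of haem synthesis in red cells, by -0.79 and 2.06, and Tnfrsf11b, osteoprotegerin, by 0.42 and 2.92. Gstm2 was called lower in muscle (-1.46) and stood at 1.21 in aorta. By contrast a (3.93 and 3.76), Gdpd3 (4.56 and 4.95) and Mup1 (-5.80 and -6.10) had differences of the same sign in both tissues and were not called in the interaction. None of these muscle arrays shared a slide with an aorta array of the 2 groups.

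**Figure D5:**
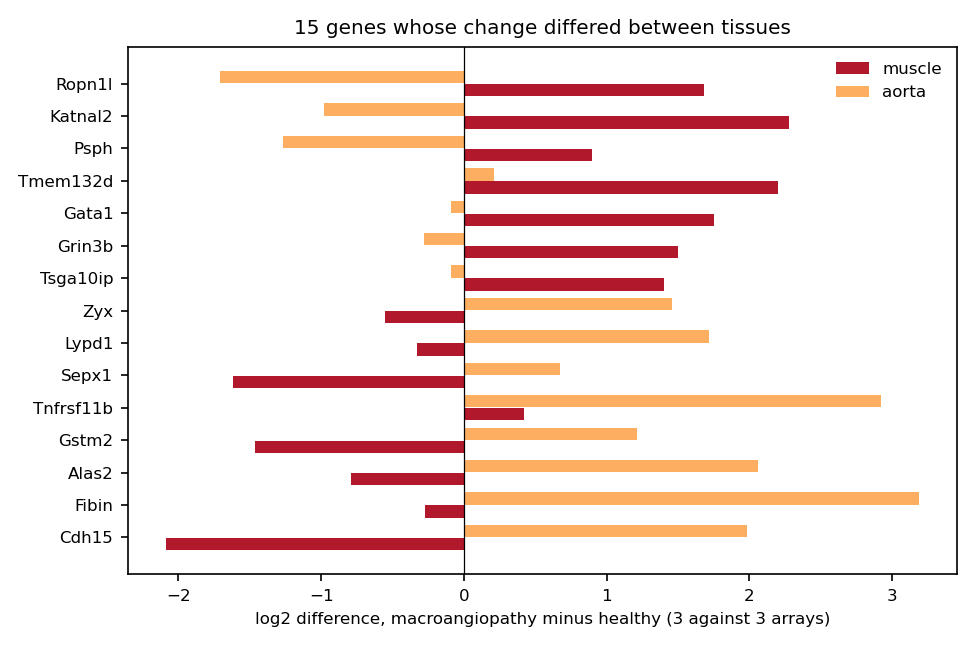
Log2 difference between macroangiopathy and healthy mice (x axis) in muscle (red) and aorta (orange) for the 15 genes whose change differed between the tissues at an adjusted P value below 0.05, with 3 arrays per group and tissue. Bars start at 0 and show differences of means. Cdh15, Sepx1 and Gstm2 lie below 0 in muscle and above 0 in aorta, and Ropn1l, Katnal2 and Psph the reverse.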

How the data were processed

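RNA of aorta and skeletal muscle was labelled with Cy3 and hybridized to single-colour Agilent mouse arrays, and the authors read the spots with Feature Extraction 10.7.3.1 according to the file headers. The deposited scanner files give median spot and background intensity, not normalized, and a background-subtracted processed intensity. A log2 value table of the authors served as an alternative. Of 45018 spots, 1639 controls were removed, which left 41174 probes, 34891 of them with a gene symbol (21186 genes). As the study's methods state, limma was used: median intensity was corrected with normexp (offset 0), set to log2 and quantile normalized over 42 arrays, and the probes of a symbol were averaged. A gene entered a test if 1 of its probes passed the scanner's background call on every array of either group. The 6 arrays were compared with lmFit and eBayes, two-sided, with Benjamini-Hochberg adjustment over all genes tested and no covariate. The comparison with diabetic muscle was fitted alike, and that with aorta as an interaction over 12 arrays. R 4.3.3, limma 3.58.1 and Python 3.11.15 were used, and the fit was tested on simulated data.

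A fold is given as "at least" where a gene was not well above background on any array of 1 group, against the higher of its own signal and the lowest detected signal there. Named genes are the 10 largest increases and decreases among called genes without overlap, up to 4 called members of each gene list with the smallest adjusted P values, the check genes a, Lep, Nnt and Nos3, defining markers, and the 5 largest tissue differences in each direction. Other genes named were chosen after their values were seen. 1 gene that the rule names is not reported here. The groups compared and the gene lists were chosen with earlier results of these data known. Symbols are those of the array design, where 990 of 1006 listed symbols were found. Probes were designed on mm9, and their fit to KK/Ay transcripts was not tested. Alternatives covered background correction, scaling, filters, probe choice, the authors' log2 table, blocks for slide and replicate number, larger fits and each array left out. A fit without healthy array 2, list counts under the alternatives and the levels on slides 4 and 10 were added after seeing the data.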

Additional observations from a re-analysis of the deposited data

Results flagged for a closer look

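The change from healthy to macroangiopathy mice differed between muscle and aorta on 15 genes in limma, and each is given here as the log2 change in muscle minus that in aorta. It was 3.39 for Ropn1l, 3.25 for Katnal2, 2.18 for Psph, 1.99 for Tmem132d, 1.84 for Gata1, 1.78 for Grin3b, a subunit of the NMDA receptor, and 1.49 for Tsga10ip. It was -4.06 for Cdh15, -3.46 for Fibin, -2.85 for Alas2, -2.67 for Gstm2, -2.49 for Tnfrsf11b, -2.29 for Sepx1, a methionine sulfoxide reductase, -2.05 for Lypd1 and -2.01 for Zyx, the focal adhesion protein zyxin. The adjusted P values ran from 0.0117 for Katnal2 and Lypd1 to 0.0493. Lypd1 was above background on none of the 6 muscle arrays, so its change in muscle lies between signals that were not detected. The part of the slides in these differences was not tested beyond the fit with slide as a random block, which called 0 of them, with 1328 genes below an unadjusted P value of 0.05.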

How the results depend on the processing

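Between macroangiopathy and healthy muscle limma called 463 genes. It called 204 without the filter on dim probes (201 of them among the 463), 208 with slide as a random block (all among them) and 267 in a fit of 12 arrays of both tissues (213 among them). It called 3521 in a fit of all 21 muscle arrays, 2395 in that fit with slide as a random block, 4911 with a batch term for slides 4 and 10, 5515 without healthy arrays 1 and 2 and, as an alternative chosen after seeing the data, 4534 without healthy array 2. The fits with the batch term and without healthy arrays 1 and 2 both rest on healthy array 3 alone, which is assumed to vary like the other groups. Leaving out each array in turn gave 18 to 1589. The 15 genes that differed between the tissues became 48 with an offset of 50, 5 without the filter, 3 with a filter on every array, 25 on the brightest probe, 0 with slide as a random block (1328 unadjusted) and 0 to 155 with an array left out, the counts of 0 falling without macroangiopathy muscle array 1 or 2 or macroangiopathy aorta array 2 (1348, 1516 and 1312 unadjusted). The 2 genes between macroangiopathy and diabetic muscle became 1 on the processed signal, 1 without the filter, 5 on the brightest probe, 1 on the authors' value table and 1 to 1 with an array left out. In limma they became 0 in the 21 arrays (513 unadjusted), 0 with slide as a random block there (266), 0 with the batch term (809) and 0 in 12 arrays of both tissues (372).

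With the replicate number as a block, 25, 1 and 1 genes were called in the 3 comparisons. The numbers do not pair the arrays, since deviations of same-numbered arrays correlated at -0.103, -0.493 and -0.246.

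Of 83 genes named and tested, 81 kept their sign in all alternatives. Ece1 turned to 0.18 on its brightest probe, and Fibin in muscle to 0.10 with the batch term and to 0.10 without healthy arrays 1 and 2. Of the 77 named genes called, 10 were called in every alternative that tested them: Gdpd3, 1700020D05Rik, Abhd1, Pttg1 and Katnal2 in 22, and a, LOC100504785, Gal3st1, 5830417I10Rik and LOC100505027 in 21, since they were not tested under the filter on every array. The causes were not tested.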
